A study of Cricetulus griseus with 27 samples.

Results

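The mature miRNAs of the miR-192, miR-194 and miR-215 clusters were followed through cells and shed vesicles of CHO-K1, a Chinese hamster ovary line of epithelial-like shape used to make recombinant proteins. Members were the 4 entries of the deposited miRNA count table, out of 4815 entries, named cgr-miR-192, mmu-miR-192-5p, cgr-miR-194 and hsa-miR-215-5p, where the prefix gives the species of the reference sequence (cgr Chinese hamster, mmu mouse, hsa human). Another 10 entries of the table bear the name miR-192, miR-194 or miR-215, and 5 of them had counts in any library.

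These miRNAs come from a pair of short clusters in mammalian genomes, one making miR-192 and a copy of miR-194, the other making miR-215 and the other copy of miR-194. In human cells the tumour suppressor p53 raises miR-192, miR-194 and miR-215, and miR-192 and miR-215 restrain the cell cycle. The miR-192 and miR-215 guides share a seed, the short 5′ stretch that pairs with target mRNAs, whereas miR-194 has a seed of its own. All are best known from epithelium of gut, liver and kidney. In the RefSeq annotation of the Chinese hamster (assembly CriGri-PICRH-1.0), Mir192 lay next to Mir194-2 between Ehd1 and Atg2a, and Mir215 lay next to Mir194, both inside the span of Iars2.

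Small RNA was sequenced from exosomes (small vesicles of endosomal origin), microparticles (MPs, larger vesicles pinched off at the cell surface) and cells, each from an osmotic culture given 60 mM NaCl (120 mOsm/L above the medium), an ammonia culture given 9 mM NH4Cl, and a standard culture. All cultures held 15 mL with 6 mM glutamine and were taken on day 3, and each of the 9 groups had 3 libraries that the labels call biological replicates. Library kit and pool differed by culture, TruSeq Small RNA for the 18 stressed libraries and NextFlex Combo-Seq for the 9 standard ones, so stress cannot be told apart from kit and pool in any comparison of a stressed with a standard culture. The labels name a cell line and not separate clones, and the method that parted the fractions was not stated in what was read here.

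Library totals ran from 26516 counts in an osmotic exosome library to 10374430 in an osmotic cell library, and standard cells were shallow for a cell fraction, at 132154 to 180764. Levels are given in CPM, a member's count scaled to 1000000 counts of its library, without a length correction, since mature miRNAs are of like length. The miRNAs that CHO cells are known to make in plenty (miR-21, miR-92a, miR-23a and let-7) took 49.9% to 82.9% of the counts in every library. The liver marker miR-122 summed to at most 6.38 CPM, immune markers to at most 13.6 CPM, neuronal markers to at most 26.7 CPM and miR-200, miR-141 and miR-375 of other epithelia to at most 40.1 CPM. Red cell markers summed higher, to 151 to 6330 CPM in osmotic exosomes, 13 to 9460 CPM in ammonia exosomes and 0.906 to 3110 CPM in all other groups. All but 2 of their counts were miR-486, which muscle also makes, with 2 counts of miR-451 and 0 of miR-144 in the series. Their part in the results was not tested. Libraries hold bulk RNA, so less of a miRNA per vesicle and fewer vesicles that carry it cannot be told apart.

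In standard culture the mean level of each of the 4 members was higher in exosomes than in cells, though not all were called. mmu-miR-192-5p did not pass (adjusted p = 0.0574, edgeR). hsa-miR-215-5p had 2 counts in standard cells and was not tested in the planned fits. cgr-miR-194 was the most abundant of the 4 in every standard group, and both cgr-miR-194 and cgr-miR-192 rose in exosomes over cells. In the stressed cultures the cells still held cgr-miR-194 and cgr-miR-192, whereas none of the 4 members had a single count in any of the 12 stressed exosome and MP libraries. Summed over the 4 entries, the level was 646 ± 71.7 CPM in standard exosomes, 407 ± 89.1 CPM in standard MPs and 136 ± 41.7 CPM in standard cells (SD, n = 3 each). Among cells the sum was 159 ± 82.0 CPM in the osmotic, 71.7 ± 18.0 CPM in the ammonia and 136 ± 41.7 CPM in the standard culture (SD, n = 3 each).

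**Figure D1:**
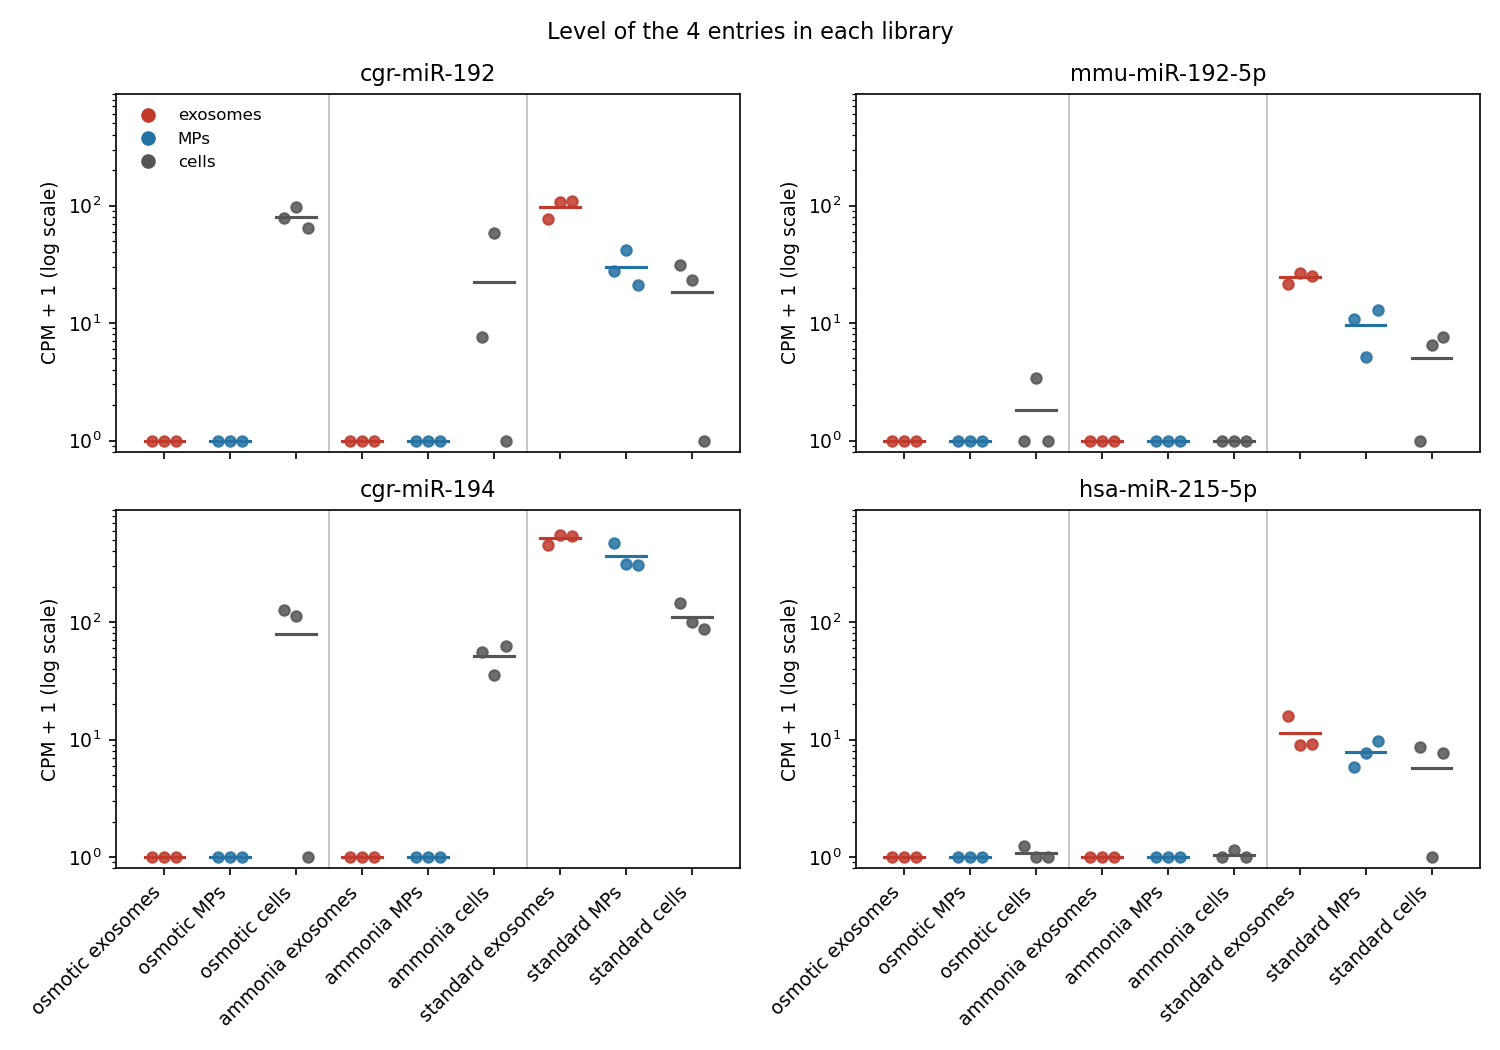
Level of each of the 4 entries in each library, as CPM + 1 on a log scale, with points for libraries and short lines for the mean of 3. All stressed exosome and MP libraries sit at 0 CPM (plotted at 1), the cells of both stressed cultures hold cgr-miR-192 and cgr-miR-194, and cgr-miR-194 in standard exosomes reaches 452 to 555 CPM.

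cgr-miR-194, an entry for a miRNA that both clusters make, had 452, 555 and 538 CPM in standard exosomes, 468, 314 and 306 CPM in standard MPs and 144, 99.6 and 86.4 CPM in standard cells. Which cluster gave its counts was not tested. Every exosome and every MP library lay above every cell library, while exosomes and MPs overlapped because the first MP library reached the exosome range. The entry rose in exosomes over cells by 2.05 ± 0.27 on the log2 scale (SE, adjusted p = 2.75e-05, edgeR's quasi-likelihood test with Benjamini-Hochberg adjustment over 351 entries). It also rose in MPs over cells, by 1.67 ± 0.27 (SE, adjusted p = 0.000346, same edgeR fit). Exosomes over MPs gave 0.37 ± 0.23 (SE, adjusted p = 0.237, same edgeR fit), which did not pass.

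cgr-miR-192, the guide of the first cluster, had 76.6, 106 and 109 CPM in standard exosomes, 26.9, 40.9 and 19.9 CPM in standard MPs and 30.3, 22.1 and 0 CPM in standard cells. Exosomes lay above both other fractions without overlap, and MPs overlapped cells. The cell values rest on counts of 4, 4 and 0, and at the mean level of the first 2 cell libraries the third would hold 3.94 counts. The entry rose in exosomes over cells by 2.30 ± 0.60 (SE, adjusted p = 0.00588, edgeR) and in exosomes over MPs by 1.58 ± 0.44 (SE, adjusted p = 0.0162, edgeR), whereas MPs over cells gave 0.72 ± 0.64 (SE, adjusted p = 0.418, edgeR). The difference between exosomes and MPs missed the threshold without MP library 1 (adjusted p = 0.075, edgeR), without MP library 3 (adjusted p = 0.0793) and without exosome library 2 (adjusted p = 0.0653).

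mmu-miR-192-5p, the mouse reference entry for the same guide, was a minor companion of cgr-miR-192. It had 20.6, 25.7 and 24.3 CPM in standard exosomes, 9.77, 4.18 and 12 CPM in standard MPs and 0, 5.53 and 6.64 CPM in standard cells. Exosomes again lay above MPs and cells without overlap, though the cell values rest on counts of 0, 1 and 1. Exosomes over cells gave 2.22 ± 0.93 (SE, adjusted p = 0.0574, edgeR), just past the threshold of 0.05, and the entry passed with scaling by library size alone (adjusted p = 0.0364) and with the authors' effective library sizes (adjusted p = 0.0297). Exosomes over MPs gave 1.28 ± 0.57 (SE, adjusted p = 0.105, edgeR) and MPs over cells 0.94 ± 1.02 (SE, adjusted p = 0.502, edgeR).

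The near-identical miR-192 entries may share reads that the counting could split, so their division is uncertain. cgr-miR-192 took 78.8%, 80.6% and 81.8% of the miR-192 counts in the standard exosome libraries and 77.4% of the summed counts in standard MPs. Among cells it took 99.1% in the osmotic culture (exact Clopper-Pearson 95% interval 98.5% to 99.4%), 100% in the ammonia culture (99.2% to 100%) and 80.0% in the standard culture (44.4% to 97.5%), where kit and culture change together. These intervals pool the libraries and leave out the spread between them. The osmotic cell libraries stood at 100%, 97.5% and 100%, and ammonia cell library 2 held 395 of the 433 ammonia counts. With both entries summed, miR-192 rose in standard exosomes over cells by 2.29 ± 0.45 (SE, adjusted p = 0.000791, edgeR) and in exosomes over MPs by 1.52 ± 0.34 (SE, adjusted p = 0.00518, edgeR). MPs over cells gave 0.77 ± 0.48 (SE, adjusted p = 0.233, edgeR).

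hsa-miR-215-5p, the human reference entry for the guide that shares the miR-192 seed, was the scarcest member of standard exosomes and MPs. Its level was 14.9, 8.07 and 8.11 CPM in standard exosomes, 4.89, 6.69 and 8.77 CPM in standard MPs and 7.57, 0 and 6.64 CPM in standard cells. Exosomes lay above cells by a narrow margin, since the lowest exosome value was 8.07 CPM and the highest cell value, a single count, was 7.57 CPM. Its counts fell below the filter on low counts, so it was tested in none of the fits as planned. With no filter, exosomes over cells gave 1.22 ± 1.28 (SE, adjusted p = 0.604, edgeR over 830 entries) and exosomes over MPs 0.46 ± 0.90 (SE, adjusted p = 0.843, edgeR).

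Of the 3 members that passed the filter, 2 rose in standard exosomes over cells, where 51.6% of the 351 entries tested were called and 26.8% were called higher. In MPs over cells 1 of the 3 rose, where 31.3% were called and 15.7% were called higher. In exosomes over MPs 1 of the 3 rose, where 29.6% were called and 13.7% were called higher. The 3 members tested were higher in exosomes than in cells without overlap between groups, a pattern held by 34.2% of the entries tested. Of these 3, the 2 miR-192 entries may share reads. The pattern also held for 1 of the 3, cgr-miR-194, in MPs over cells (27.1% of entries). In exosomes over MPs it held for 2, both miR-192 entries (29.9%). hsa-miR-215-5p, outside the entries tested, lay above cells in exosomes by 8.07 against 7.57 CPM. Values of muscle markers (miR-1, miR-133a, miR-206 and miR-499, 15 entries, 6 of them with counts in standard exosomes) went the same way, summing to 372 to 490 CPM in standard exosomes, 275 to 316 CPM in standard MPs and 188 to 272 CPM in standard cells. Their part in the result was not tested.

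**Figure D2:**
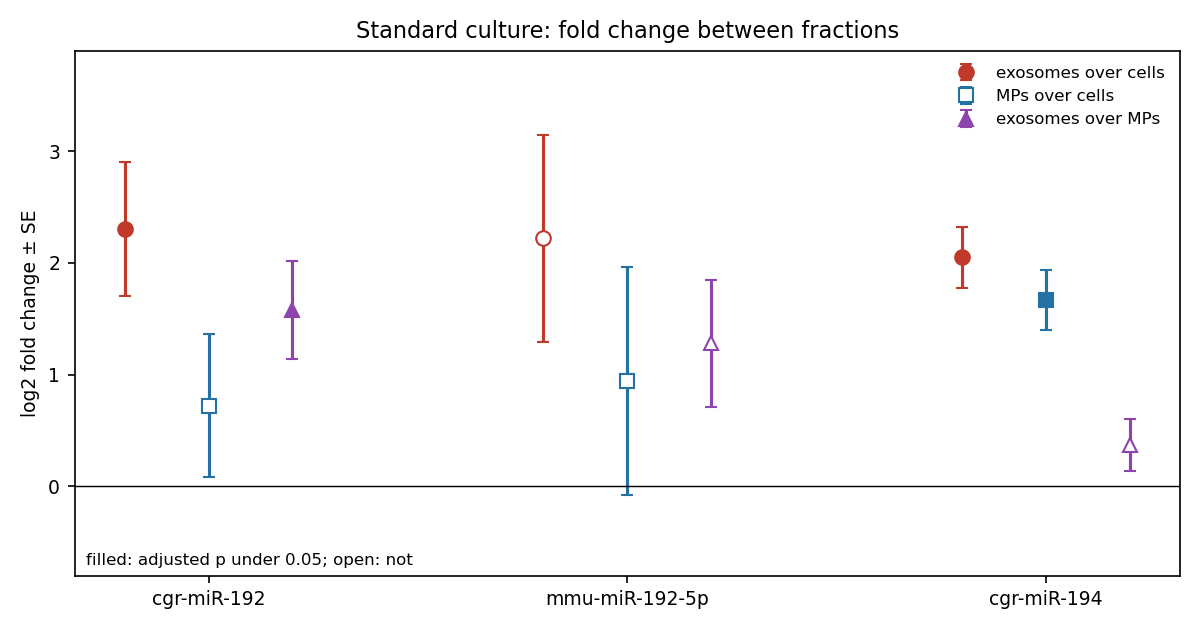
Log2 fold change between fractions of the standard culture for the 3 entries tested, with bars for the SE of edgeR's quasi-likelihood fit of 9 libraries. Filled symbols passed: cgr-miR-192 at 2.30 and cgr-miR-194 at 2.05 in exosomes over cells, cgr-miR-194 at 1.67 in MPs over cells and cgr-miR-192 at 1.58 in exosomes over MPs.

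The counts of cgr-miR-194 and cgr-miR-192 were also compared within each library. For each count of cgr-miR-192 there were 5.9, 5.22 and 4.91 counts of cgr-miR-194 in the standard exosome libraries, 17.4, 7.67 and 15.3 in the MP libraries, and 4.75 and 4.5 in the 2 cell libraries with any cgr-miR-192. The ratio was higher in every MP library than in any exosome library. The difference between MPs and exosomes is given as a description and was not tested.

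**Figure D3:**
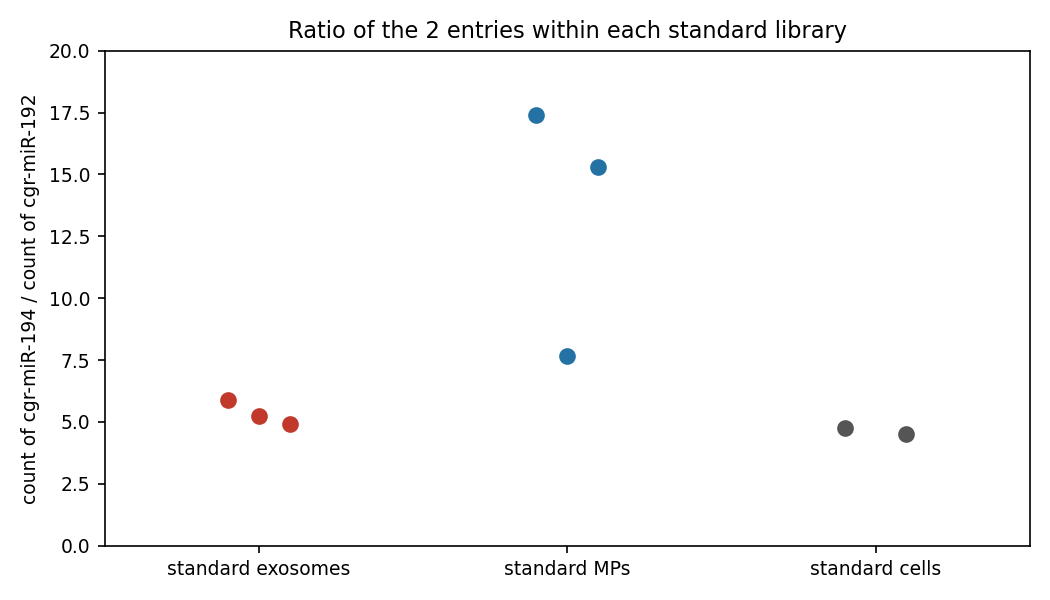
Count of cgr-miR-194 divided by the count of cgr-miR-192 in each standard library, with 1 point per library and the axis from 0. MPs lie at 7.67 to 17.4, exosomes at 4.91 to 5.9 and the 2 cell libraries that have a ratio at 4.5 and 4.75.

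In osmotic cells cgr-miR-192 was steady at 77.3, 96.0 and 63.9 CPM, from counts of 635, 795 and 663. cgr-miR-194 was at 125 and 111 CPM in the first 2 osmotic cell libraries and at 0 CPM in the third, which was the deepest library of the series. At the mean of the other 2 that library would hold 1220 counts of cgr-miR-194. Of the 273 entries tested that averaged at least 20 CPM in osmotic cells, 2 had a library at 0, which is 0.733%, and both zeros fell in that library. The other entry was mmu-miR-744-5p, with counts of 496, 786 and 0, named here after its values were seen.

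In ammonia cells cgr-miR-194 was the steady one, at 55.0, 34.6 and 61.1 CPM. cgr-miR-192 was uneven there, at 6.59, 57.7 and 0 CPM, from counts of 38, 395 and 0. At the mean of the first 2 libraries the third would hold 168 counts. A library at 0 was found for 17 of 252 entries that averaged at least 20 CPM in ammonia cells, which is 6.75%, and 9 of the 17 were at 0 in the third library. mmu-miR-192-5p had 20 counts in 1 osmotic cell library and none in the other 5 stressed cell libraries, and hsa-miR-215-5p had 3 counts in all 6 together.

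Between the stressed cells, cgr-miR-192 averaged 79.0 ± 16.1 CPM in osmotic cells and 21.4 ± 31.6 CPM in ammonia cells (SD, n = 3 each). The fitted difference, osmotic over ammonia, was 1.48 ± 1.77 on the log2 scale (SE, adjusted p = 0.997, edgeR over 332 entries) and did not pass. It ran from 0.88 without ammonia cell library 3 to 4.12 without ammonia cell library 2. cgr-miR-194 averaged 78.6 ± 68.4 CPM in osmotic cells and 50.2 ± 13.9 CPM in ammonia cells (SD, n = 3 each), with overlap, and its fitted difference was 0.22 ± 1.75 (SE, adjusted p = 0.997, edgeR). Without their library at 0 the means would be 118 CPM for cgr-miR-194 in osmotic cells and 32.2 CPM for cgr-miR-192 in ammonia cells. Whether these single zeros arose in the libraries or in the making of the table was not tested, so means and fits that hold them carry that doubt. The sign of that difference turned to -0.35 without osmotic cell library 1 and to -0.12 without osmotic cell library 2. None of the members passed in this comparison by edgeR or by DESeq2, none had an unadjusted p under 0.05 by edgeR, and 0% of the entries tested were called.

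None of the 4 members, and none of the other 10 entries with these names, had a count in the 3 osmotic exosome, 3 osmotic MP, 3 ammonia exosome or 3 ammonia MP libraries. For a group at 0, counting error leaves room for as many as 3 counts in its summed total, which is 12.7 CPM in osmotic exosomes, 1.22 CPM in osmotic MPs, 6.32 CPM in ammonia exosomes and 0.400 CPM in ammonia MPs. By summed total alone the limit was low in MPs and high in exosomes, whose libraries held 26516 to 203816 counts. Yet osmotic MP libraries had counts for 142 to 180 entries and ammonia MP libraries for 196 to 256. Standard cells, shallower and of another kit, had counts for 385 to 437. The limits take a total to reflect the molecules sampled, which was not tested. These limits and the bounds below cover counting error only, since reads amplified without molecular tags do not each stand for a molecule.

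In osmotic MPs cgr-miR-192 was at least 64.7-fold lower than in osmotic cells and cgr-miR-194 at least 64.3-fold lower, where the cell level would have given 193 counts of cgr-miR-194. In ammonia MPs cgr-miR-192 was at least 53.6-fold lower than in ammonia cells and cgr-miR-194 at least 126-fold lower, where the cell level would have given 161 and 377 counts. The cell mean of cgr-miR-192 in the ammonia culture rests on library 2, without which it was 3.29 CPM and the bound 8.23-fold. Leaving out MP library 2 or 3 in the osmotic culture lowered the bounds to between 35.4-fold and 39.1-fold, and leaving out osmotic cell library 3 raised that of cgr-miR-194 to 96.5-fold. Leaving out MP library 1 or 3 in the ammonia culture lowered them to 32.4-fold and 35.2-fold for cgr-miR-192 and to 75.9-fold and 82.5-fold for cgr-miR-194. Both entries fell in osmotic MPs over cells (adjusted p = 0.0199 for cgr-miR-192 and 0.0218 for cgr-miR-194, edgeR) and in ammonia MPs over cells (adjusted p = 0.0232 and 0.0164, edgeR). With every stressed vesicle library at 0, both passed the filter on low counts through cells alone. A call could therefore only be lower, and it adds no support to the bounds. In osmotic MPs 51.5% of the 332 entries tested were called and 48.5% were called lower, and in ammonia MPs 32.5% were called and 31% were called lower, so the calls of both members stand within a broad shift of the table.

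Those calls were close to the threshold. In osmotic MPs over cells both were lost without osmotic cell library 1 (adjusted p = 0.0547 for cgr-miR-192 and 0.068 for cgr-miR-194, edgeR) or without any 1 of the 3 MP libraries (0.0513 to 0.0762), and cgr-miR-194 also without osmotic cell library 2 (0.0532). In ammonia MPs over cells cgr-miR-192 was lost without cell library 2 (0.0716) or without any 1 of the 3 MP libraries (0.0558 to 0.0667), and cgr-miR-194 without MP library 2 (0.0505). The members' counts in these MP libraries stayed at 0 throughout. With DESeq2, cgr-miR-194 in ammonia MPs was the only one of the 4 calls that passed, and with no filter on low counts none did.

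In exosomes the bounds were weaker. cgr-miR-192 was at least 6.2-fold lower in osmotic exosomes than in osmotic cells and cgr-miR-194 at least 6.17-fold lower, and in ammonia exosomes they were at least 3.39-fold and 7.94-fold lower than in ammonia cells. Osmotic exosome library 1 held 158836 of the group's 235340 counts, and without it the limit was 39.2 CPM and the bounds 2.02-fold and 2.0-fold. Without ammonia exosome library 1 the bounds were 1.93-fold for cgr-miR-192 and 4.53-fold for cgr-miR-194. Without ammonia cell library 2 no bound was left for cgr-miR-192, whose cell mean then lay under the limit, and without ammonia cell library 3 it was 5.09-fold. Neither passed in osmotic exosomes over cells (adjusted p = 0.2 for both, edgeR), where the unadjusted p was 0.037 for cgr-miR-192 and 0.0416 for cgr-miR-194 and 0% of entries were called. Neither passed in ammonia exosomes over cells (adjusted p = 0.116 and 0.0842, edgeR; unadjusted p = 0.0518 and 0.0266), where 9.04% were called. DESeq2 called neither in either comparison.

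Being at 0 in a whole vesicle group was common among miRNAs that the stressed cells held. Of the entries that averaged at least 20 CPM in cells of the same culture, 26.4% were at 0 in all 3 osmotic exosome libraries, 32.6% in all 3 osmotic MP libraries, 27% in all 3 ammonia exosome libraries and 13.9% in all 3 ammonia MP libraries. cgr-miR-192 and cgr-miR-194 were among the 33 of 287 entries, or 11.5%, at 0 in all 12 stressed vesicle libraries.

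**Figure D4:**
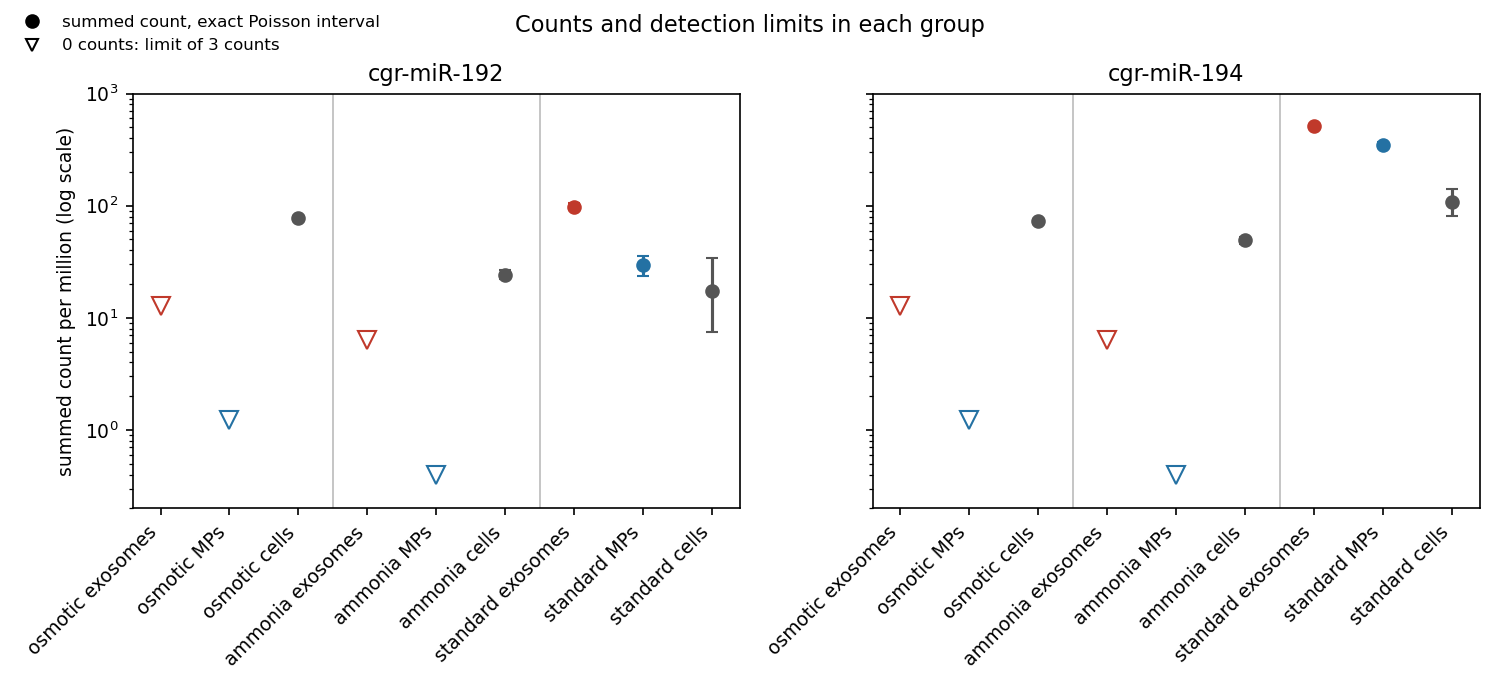
Summed count scaled to CPM in each group for cgr-miR-192 and cgr-miR-194, on a log scale, with exact Poisson 95% intervals that are often smaller than the point. The intervals cover read sampling only. They leave out spread between libraries, such as 125, 111 and 0 CPM for cgr-miR-194 in osmotic cells. Open triangles mark groups with 0 counts and stand at the limit of 3 counts: 12.7 CPM in osmotic exosomes, 1.22 CPM in osmotic MPs, 6.32 CPM in ammonia exosomes and 0.400 CPM in ammonia MPs.

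Set against vesicles of the standard culture, those of both stressed cultures were at 0 counts for every member. The bounds here cover counting error of the stressed group only, and the tests follow them. cgr-miR-194 was at least 297-fold lower in osmotic MPs and at least 906-fold lower in ammonia MPs than in standard MPs, and at least 40.4-fold lower in osmotic exosomes and 81.4-fold lower in ammonia exosomes than in standard exosomes. cgr-miR-192 was at least 23.9-fold lower in osmotic MPs and 73.1-fold lower in ammonia MPs than in standard MPs, and at least 7.65-fold and 15.4-fold lower in osmotic and ammonia exosomes than in standard exosomes. Bounds for mmu-miR-192-5p were 7.07-fold in osmotic MPs, 21.6-fold in ammonia MPs, 1.85-fold in osmotic exosomes and 3.72-fold in ammonia exosomes. hsa-miR-215-5p was at least 5.55-fold lower in osmotic MPs, 17-fold in ammonia MPs and 1.64-fold in ammonia exosomes, and in osmotic exosomes its standard level of 10.4 CPM lay under the limit. Without osmotic exosome library 1 the bounds in osmotic exosomes were 13.1-fold for cgr-miR-194 and 2.49-fold for cgr-miR-192, and none was left for mmu-miR-192-5p. Without ammonia exosome library 1 they were 46.5-fold, 8.79-fold and 2.12-fold for the same entries in ammonia exosomes, and none was left for hsa-miR-215-5p. In osmotic MPs, leaving out library 2 or 3 gave 163-fold and 179-fold for cgr-miR-194, 13.2-fold and 14.5-fold for cgr-miR-192, 3.89-fold and 4.27-fold for mmu-miR-192-5p, and 3.06-fold and 3.35-fold for hsa-miR-215-5p. In ammonia MPs, leaving out library 1 or 3 gave 548-fold and 596-fold for cgr-miR-194, 44.2-fold and 48.1-fold for cgr-miR-192, 13-fold and 14.2-fold for mmu-miR-192-5p, and 10.2-fold and 11.1-fold for hsa-miR-215-5p. None of these differences can be told apart from the change of kit and pool.

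Of the 3 members tested over all 27 libraries, cgr-miR-194 fell in all 4 of these comparisons, with adjusted p = 0.021 in osmotic exosomes, 0.00276 in osmotic MPs, 0.00722 in ammonia exosomes and 0.00114 in ammonia MPs (edgeR over 420 entries). cgr-miR-192 fell in osmotic MPs (adjusted p = 0.02), ammonia exosomes (0.0242) and ammonia MPs (0.00707) and did not pass in osmotic exosomes (0.0614, edgeR). mmu-miR-192-5p fell in ammonia MPs (adjusted p = 0.0367, edgeR), a call lost without any 1 of the 6 MP libraries (0.0534 to 0.0793), and did not pass in osmotic exosomes (0.221), osmotic MPs (0.095) or ammonia exosomes (0.119). hsa-miR-215-5p was not tested. The 3 tested were at 0 in these stressed vesicles and passed the filter through other groups, so their calls could only be lower. The share of all entries called was 16.2% in osmotic exosomes, 46.2% in osmotic MPs, 33.1% in ammonia exosomes and 44.8% in ammonia MPs, and 12.1%, 37.9%, 26.4% and 32.4% were called lower. The call of cgr-miR-194 in osmotic exosomes was lost without osmotic exosome library 1 (0.0893) or 2 (0.0579), that of cgr-miR-192 in osmotic MPs without osmotic MP library 2 (0.0678) or 3 (0.0504), and that of cgr-miR-192 in ammonia exosomes without ammonia exosome library 1 (0.0655), 2 (0.0618) or 3 (0.056).

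In cells, no member passed against the standard culture by edgeR with TMM scaling or by DESeq2. cgr-miR-192 gave a fitted 2.99 ± 1.49 in osmotic over standard cells (SE, adjusted p = 0.165, edgeR), and ammonia over standard cells gave 1.35 ± 1.43 (SE, adjusted p = 0.512, edgeR), a value of -0.87 without ammonia cell library 2. cgr-miR-194 gave 0.30 ± 1.40 in osmotic cells (SE, adjusted p = 0.923, edgeR) and 0.02 ± 1.40 in ammonia cells (SE, adjusted p = 1, edgeR). Under other scalings these ran from -0.48 to -1.04 in osmotic cells and from -0.76 to -1.46 in ammonia cells, so the sign of the fitted value turned with the scaling. In CPM, cgr-miR-194 was at 55.0, 34.6 and 61.1 in ammonia cells and at 144, 99.6 and 86.4 in standard cells, and osmotic and standard cells overlapped. mmu-miR-192-5p gave -1.67 ± 1.89 in osmotic cells (SE, adjusted p = 0.576, edgeR), which became a call without osmotic cell library 2, the one with its 20 counts (adjusted p = 0.0498), and in ammonia cells it was at 0 (adjusted p = 0.0584, edgeR; unadjusted p = 0.0159). In ammonia over standard cells it passed in edgeR with RLE scaling (adjusted p = 0.0294), library size alone (0.0382) and the authors' sizes (0.0458), where standard cells held 2 counts. The share of all entries called was 18.1% in osmotic cells and 24.5% in ammonia cells.

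The vesicle minus cell difference was itself compared between cultures. It was lower in the osmotic than in the standard culture for cgr-miR-192 and cgr-miR-194, both for exosomes (10% of the 420 entries called, 8.81% lower) and for MPs (38.6% called, 35.7% lower), and lower in the ammonia than in the standard culture for both entries in exosomes (21.4% called, 20.7% lower) and in MPs (21.9% called, 19.5% lower). Adjusted p ran from 0.00509 to 0.0457 over these 8 tests (edgeR). Every stressed vesicle library was at 0 for both entries, and standard vesicles were fitted above cells. A call could therefore only be lower, and these calls add no support of their own. The kit cannot be told apart from the culture here either.

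Other miRNAs tied to p53 in human or mouse cells did not share one course. The list held guides of miR-34a, miR-34b, miR-34c, miR-145, miR-143, miR-15a, miR-16, miR-107, miR-22, miR-605 and miR-1246, with 17 entries in the table and 11 with counts. Of 9 tested in standard culture, 2 rose and 3 fell in exosomes over cells (24.8% of all entries were called lower; median log2 fold change -0.85, against 0.09 over all entries), 2 rose and 0 fell in MPs over cells (15.7% called lower; median -0.53, against 0.07), and 1 rose and 2 fell in exosomes over MPs (16% called lower; median -0.43, against 0.01). Among entries of this list that passed in standard culture, cgr-miR-15a-5p in exosomes over cells had the largest change. It fell by 2.51 ± 0.98 on the log2 scale (SE, adjusted p = 0.0446, edgeR).

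cgr-miR-22-3p, a widely expressed miRNA, led in MPs over cells, where it rose by 1.23 ± 0.24 (SE, adjusted p = 0.00142, edgeR), and it also rose in exosomes over cells by 2.16 ± 0.24 (SE, adjusted p = 5.8e-06, edgeR). mmu-miR-15a-5p led in exosomes over MPs, where it fell by 1.11 ± 0.27 (SE, adjusted p = 0.00847, edgeR). The rat entry rno-miR-15a-5p went the other way from the hamster and mouse miR-15a entries in exosomes over cells, at 1.48 ± 0.30 (SE, adjusted p = 0.000861, edgeR), and reads may be split among these near-identical entries. Of 7 tested in the stressed cultures, 4 fell and 0 rose in osmotic MPs over cells (48.5% of all entries were called lower), 3 fell and 0 rose in ammonia MPs over cells (31% called lower), and 1 fell and 0 rose in ammonia exosomes over cells, where 7.83% of all entries were called lower.

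Likeness of pattern was measured as Pearson's r of log2(CPM + 1) among entries of at least 50 CPM in some group. Across the 9 standard libraries, cgr-miR-192 was most like cgr-miR-30e-5p (r = 0.983), mmu-miR-1271-5p (0.963) and cgr-miR-324-5p (0.963) among 244 entries, and cgr-miR-194 most like cgr-miR-27a-3p (0.989), cgr-miR-27b-3p (0.986) and hsa-miR-139-5p (0.984). Across the 18 stressed libraries, cgr-miR-192 was most like cgr-miR-19a (0.965), cgr-miR-130a-3p (0.956) and cgr-miR-339 (0.941) among 243 entries, and cgr-miR-194 most like mmu-miR-744-5p (0.986), mmu-miR-1946a (0.945) and cgr-miR-744-5p (0.929). cgr-miR-192 and cgr-miR-194 had r = 0.690 with each other in stressed and 0.767 in standard libraries. These libraries fall into fractions with different depths, which all entries share, so the values describe the pattern and carry no test. Some of the entries most alike also share a single 0 in stressed cells. mmu-miR-744-5p was at 0 with cgr-miR-194 in osmotic cell library 3. cgr-miR-19a and cgr-miR-130a-3p were at 0 with cgr-miR-192 in ammonia cell library 3. The part of these zeros in r was not tested.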

How the data were processed

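Small RNA was counted in 27 libraries, 9 groups of 3. The authors deposited whole read counts for each mature miRNA entry. The deposited normalised signal beside them equals counts over the authors' effective library sizes, which served as an alternative scaling. The submitters' processing notes name FastQC 0.10.1, cutadapt 2.8 and the builds GRCm38, Rnor_6.0 and GRCh38. What counted the reads was not stated in what was read here. Another deposited table held 54 columns of per-sample values that were not used.

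Counts were tested with edgeR 4.0.16 in R 4.3.3 (TMM scaling, the filterByExpr filter with groups given, quasi-likelihood F test, Benjamini-Hochberg adjustment over all entries tested, threshold 0.05). Separate fits used the 9 standard libraries (351 entries, biological coefficient of variation 0.301), the 18 stressed libraries (332 entries, 1.38) and all 27 (420 entries, 1.12). Groups were compared 18 times, with 6 comparisons of differences between cultures. The SE follows from the F statistic. DESeq2 1.42.0 was an alternative. The code was tested on simulated data.

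No fitted fold is given against a group at 0: the bound is the other group's mean CPM over 3 counts of the summed total. Intervals are exact at 95% and cover read sampling only, not the spread between libraries. No 2 libraries of a group agreed within sampling noise (chi-square over degrees of freedom at least 18.8). Where nothing says that replicates came from separate cultures, p-values measure the spread between these libraries.

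Named entries were the 4 members, the other entries of these names as counts, the p53-linked entry with the largest change among those that passed in each standard comparison, and the 3 entries most like cgr-miR-192 and cgr-miR-194. Members and lists were chosen with earlier results of these data known. No sequences are shown, since the tables used here hold none.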

Additional observations from a re-analysis of the deposited data

Results flagged for a closer look

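For cgr-miR-192 and cgr-miR-194 the difference of vesicles from cells was not the same in each culture, tested in edgeR's fit of all 27 libraries with adjustment over 420 entries. In MPs, adjusted p for osmotic against standard culture was 0.01 for cgr-miR-192 and 0.00808 for cgr-miR-194, and for ammonia against standard culture 0.0154 and 0.00509. In exosomes, adjusted p for osmotic against standard culture was 0.0415 for cgr-miR-192 and 0.0457 for cgr-miR-194, and for ammonia against standard culture 0.0354 and 0.0241. In the stressed cultures all vesicle libraries were at 0, so vesicles there could only lie below cells. In the standard culture vesicles lay above cells with a call for both entries in exosomes and for cgr-miR-194 in MPs, whereas cgr-miR-192 in MPs over cells did not pass (0.72 ± 0.64 on the log2 scale, SE, adjusted p = 0.418, edgeR).

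The calls for MPs were kept when any 1 library was left out, at adjusted p up to 0.0452, and under every scaling, filter and tool run. In all of these runs both entries stayed at 0 in the stressed MP libraries. The direction was thus fixed, and keeping the calls adds no support. Those for exosomes were less steady: the osmotic ones were lost in 11 of 12 leave-outs for cgr-miR-194 and 8 of 12 for cgr-miR-192, up to adjusted p = 0.1 for cgr-miR-194 without standard cell library 3 or osmotic exosome library 1 and 0.0934 for cgr-miR-192 without osmotic exosome library 1. In the ammonia culture cgr-miR-192 reached 0.0705 without ammonia cell library 2, with 6 of 12 leave-outs ending the call, and cgr-miR-194 stayed at or under 0.0493 in the leave-outs. Other settings ended the exosome calls too. In the osmotic culture both were lost with RLE scaling, the authors' sizes, library size alone, no filter and DESeq2 (adjusted p 0.0682 to 0.54). In the ammonia culture both were lost with all of these but library size alone (0.135 to 0.47). Culture cannot be told apart from kit and pool in all 8 results.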

How the results depend on the processing

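Of the log2 fold changes recomputed under alternatives, 500 kept direction and side of the threshold, 87 lost a call, 7 gained one and 17 changed sign, all of the last in cells. The 500 include values that were not called in the main fit, so they do not measure how many calls held. In standard culture, members called numbered 2 to 3 in exosomes over cells and 1 in MPs over cells under every alternative run, leaving out 1 library included. In exosomes over MPs it ran from 0 to 1.

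Without a filter on low counts no member (0) was called in osmotic MPs over cells or ammonia MPs over cells, where the calls over all entries dropped to 17 and 7, against 171 and 108. DESeq2 called 0 members in osmotic MPs and 1 in ammonia MPs. Leaving out 1 library gave 0 to 2 members in each.

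Against standard culture, leaving out 1 library gave 0 to 1 members in osmotic exosomes, 1 to 2 in osmotic MPs, 0 to 1 in osmotic cells and 1 to 2 in ammonia exosomes, and for the exosome minus cell difference 0 to 2 in the osmotic and 1 to 2 in the ammonia culture. Ammonia exosomes had 1 member called with RLE scaling, the authors' effective library sizes, no filter and DESeq2. Osmotic exosomes had 0 with the authors' sizes and no filter. Ammonia cells had 1, mmu-miR-192-5p, with the authors' sizes, RLE scaling and library size alone. The exosome minus cell difference had 0 members called in the osmotic culture with RLE scaling, the authors' sizes, library size alone, no filter and DESeq2, and 0 in the ammonia culture with all of these but library size alone. The cause was not tested.

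The changes of sign against standard cells were as follows. cgr-miR-194 in osmotic cells was at -1.04 with RLE scaling and DESeq2, -0.66 with the authors' sizes or no filter, -0.48 with library size alone, and -0.12 to 1.06 when 1 library was left out. cgr-miR-194 in ammonia cells was at -1.46 with RLE scaling and DESeq2, -0.76 with the authors' sizes or no filter, and -1.13 with library size alone. cgr-miR-192 in ammonia cells was at -0.04 with RLE scaling and DESeq2, and -0.87 to 2.24 when 1 library was left out. cgr-miR-194 in osmotic over ammonia cells ran from -0.35 to 0.86 when 1 library was left out.

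Whether replicate numbers pair the fractions was not stated, and the values do not settle it. Over 27 pairs of same-numbered libraries the correlation of deviations ran from -0.109 to 0.195, and 3 were over 0.1. The standard exosome and MP pairs stood at 0.195, 0.128 and 0.073. A library correlated best with its own number in 24 of 54 checks, each a choice among 3. Weak correlation of noisy counts cannot exclude pairing. With a replicate block, standard exosomes over cells had 170 entries called, against 181, ammonia MPs over cells 72, against 108, and cgr-miR-194 in osmotic over ammonia cells changed sign to -0.52. The block changed no count of members called. For cultures the block was chosen after seeing the data. The share of cgr-miR-192 counting other miR-192 5p entries could not be varied, since the table used here lists no other.

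Depth limits the exosomes most: a count of 0 in osmotic exosomes sets a limit of 12.7 CPM. The bounds without single libraries were added after seeing the data. In standard cells the limit is 6.47 CPM, and cgr-miR-192 rests on 8 counts there.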

Other observations

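The entries of these names outside the 4 members were low or found in single libraries. cgr-miR-194-2, the second hamster miR-194 entry, had 51, 8 and 42 counts in osmotic cells and 111 in all, from 7 libraries. cgr-miR-215-3p, the strand opposite the miR-215 guide, had 129 counts in ammonia cell library 2 and 26 in osmotic cell library 2, and none elsewhere. cgr-miR-215-5p, the hamster entry for the guide, had 15 counts in 4 libraries, so the human entry held more miR-215 counts than the hamster entry.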
